A study of Mus musculus with 9 samples.

Results

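The Myc, Max and Mxd network is a set of transcription factors that share the partner Max, and its RNA was followed here through the making of cortical neurons. Its 9 genes, Myc, Mycn, Mycl1, Max, Mxd1, Mxd3, Mxd4, Mxi1 and Mnt, were taken by symbol from the 21210 genes of the deposited table. All 9 were found, and all 9 were among the 15828 genes that passed a filter of at least 10 normalised reads in at least 3 libraries. The rule that picked them is a list of symbols, and it was drawn up with earlier results of these data known. Mycl1 carries the name Mycl in later annotations.

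All libraries came from C57BL/6 mice at embryonic day 14.5, from the lateral cortex, and every embryo carried the reporters labelled Btg2GFP/Tubb3GFP. Neurons were the cells labelled Tubb3 positive (titles GFPplus). Differentiating progenitors were those labelled Btg2 positive (RFPplus), and proliferating progenitors those labelled Btg2 negative (RFPminus), with 3 libraries in each group. Btg2 is switched on in progenitors about to make neurons, and Tubb3 is a tubulin of neurons, so the groups are defined by these reporters rather than by position or lineage. Each library was made from poly-A RNA of a pool of sorted cells from more than 3 embryos of different litters. The series asks which transcripts change from dividing progenitors to progenitors committed to neurogenesis and to neurons.

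As background, Myc, Mycn and Mycl bind DNA only as a pair with Max, recruit acetyltransferases, and raise genes of ribosome making, metabolism and the cell cycle. The Mxd proteins (Mxi1 is one of them) and Mnt compete for Max, bind the same DNA word, the E-box, and recruit Sin3 and histone deacetylases to lower the same genes. In the embryonic brain Mycn is known for sustaining the division of neural progenitors, while Mxd genes are known to come on in cells that leave the cell cycle, with Mxd3 the exception that is expressed in dividing cells.

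Promoter sequences are shown for the members that hold either of the DNA words searched, because they show which members carry the network's own binding word near their start. RefSeq windows (build GRCm38.p6) of 250 bases before to 50 after a start were found for 8 of the 9 members, in 10 windows. Myc had no window, so neither word was searched for in its promoter. The first word was the E-box CACGTG, which reads the same on both strands. Capitals mark it in a stretch of Mxd4 (chr5:34187841-34187960, minus strand), of Mnt (chr11:74830744-74830863, plus strand) and of Max across its start (chr12:76962234-76962263, minus strand).
Mxd4: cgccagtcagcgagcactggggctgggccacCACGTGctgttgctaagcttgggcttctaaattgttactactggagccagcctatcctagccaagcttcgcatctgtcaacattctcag
Mnt: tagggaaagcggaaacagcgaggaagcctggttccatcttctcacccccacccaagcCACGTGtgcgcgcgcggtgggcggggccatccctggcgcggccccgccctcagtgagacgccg
Max: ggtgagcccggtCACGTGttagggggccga
Of all 32851 windows, 7.15% hold the E-box. The second word was the E2F type, any of TTTGGCGC, TTTCGCGC, TTTCCCGC and TTTGCCGC on either strand, which 2.26% of all windows hold. E2F factors are the main switches of DNA replication genes. Among the members it was found in Mycn (chr12:12941927-12942046, minus strand), with 3 matches, of which 2 overlap on opposite strands, and capitals mark all of them.
Mycn: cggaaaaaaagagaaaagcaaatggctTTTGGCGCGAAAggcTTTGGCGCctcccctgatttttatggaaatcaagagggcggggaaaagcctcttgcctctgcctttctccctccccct
A match is a string of letters and not a measured binding site. The genes lie on chromosomes 15 (Myc), 12 (Mycn and Max), 4 (Mycl1), 6 (Mxd1), 13 (Mxd3), 5 (Mxd4), 19 (Mxi1) and 11 (Mnt).

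The sort was checked on its own genes. Tubb3 had 50230, 48666 and 39932 normalised reads in neurons, 10937, 13097 and 9711 in differentiating and 2511, 1557 and 1158 in proliferating progenitors. Btg2 had 3299, 2645 and 3390 in neurons, 14022, 14635 and 19983 in differentiating and 8952, 7032 and 9336 in proliferating progenitors, so Btg2 RNA was present in the negative gate too. The 9 radial glia markers summed to 6228 to 7580 in neurons, 49524 to 72002 in differentiating and 107682 to 125023 in proliferating progenitors. The 6 markers of intermediate progenitors, which include Btg2 itself, were highest in differentiating progenitors (57539 to 73685). Of 9 neuron markers, Tubb3 among them, 8 were found. They summed to 125893 to 148530 in neurons, 27285 to 33547 in differentiating and 2292 to 5723 in proliferating progenitors. Other cells were traced by marker lists as well, and no marker found of any list was at 0 in all libraries. The 6 interneuron markers summed to 6934 to 8017 in neurons, 442 to 2900 in differentiating and 85 to 976 in proliferating progenitors, and the 7 red blood cell markers to 139 to 196, 157 to 1451 and 70312 to 177697. The 9 microglia markers summed to at most 258 and the 8 endothelial markers to at most 534 in any library. Normalised totals were 21442620 to 22076409 in neurons, 18420135 to 19077173 in differentiating and 17531558 to 18201880 in proliferating progenitors, and the reads counted in each library were estimated at 12650000 to 27580000 from which small values occur. In sorted pools, fewer cells of a type and less RNA per cell cannot be told apart.

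The plainest change in the network was an exchange of 2 members between progenitors and neurons. Myc RNA in neurons was 5.16-fold its level in differentiating and 5.46-fold its level in proliferating progenitors, while Mxd3 RNA in neurons was at 0.142 times and 0.162 times its level in these groups. Mxd4 was higher at each step, and Mycl1 and Mxd1 were higher in differentiating than in proliferating progenitors. By its mean, Mycn stayed the most abundant Myc gene per kilobase in every group. Its libraries overlapped those of Mycl1 in neurons and differentiating progenitors. Without division by length, Mycl1 had the higher mean in differentiating progenitors.

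**Figure D1:**
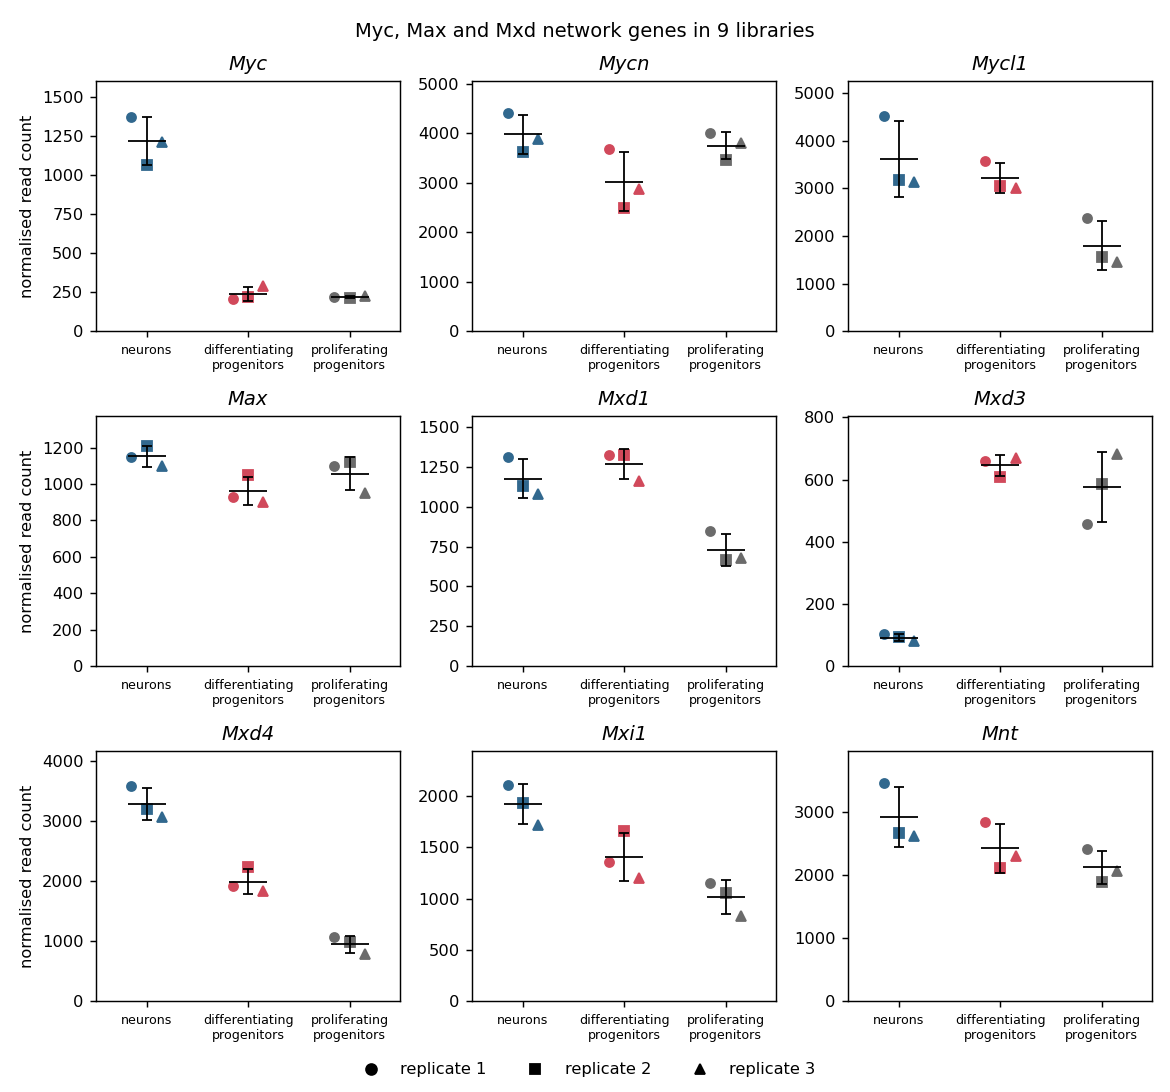
Normalised read counts (y axis, linear from 0, own scale for each gene) of the 9 genes in neurons, differentiating progenitors and proliferating progenitors (x axis). Points are libraries, with symbol shape for the replicate number, and black bars are the mean ± SD of 3 libraries; Myc lies at 1065 to 1370 in neurons and at 204 to 287 elsewhere, and Mxd3 lies at 80 to 102 in neurons and at 457 to 682 elsewhere.

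The Myc family came first. Myc, the proto-oncogene that names the network, had 1370, 1065 and 1211 normalised reads in the 3 neuron libraries. It had 204, 217 and 287 in differentiating and 220, 214 and 228 in proliferating progenitors. Every neuron library lay above every progenitor library, and the progenitor groups overlapped. Its log2 change was 2.37 ± 0.15 (SE) in neurons over differentiating progenitors (limma, Benjamini-Hochberg adjusted p = 1.46e-06), and 2.45 ± 0.15 over proliferating progenitors (adjusted p = 7.27e-07). Between differentiating and proliferating progenitors it was 0.08 ± 0.15 with a 95% interval of -0.26 to 0.42 (adjusted p = 0.786). The interneuron markers, which were also highest in neurons, moved with this difference, and their part in it was not tested.

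Mycn, the Myc gene of the developing nervous system, had 4413, 3620 and 3890 normalised reads in neurons. It had 3674, 2498 and 2883 in differentiating and 3996, 3450 and 3805 in proliferating progenitors. Its libraries overlapped between every pair of groups, with differentiating progenitors the lowest on average (3018 ± 600 SD, n = 3, against 3750 ± 277 in proliferating progenitors). Within each replicate number, too, the differentiating progenitors were the lowest. The log2 change in differentiating over proliferating progenitors was -0.33 ± 0.14 (limma adjusted p = 0.134). It passed the threshold with the replicate number as a block (adjusted p = 0.00275), with replicates 2 and 3 alone (-0.43, adjusted p = 0.0102), and without replicate 1 of the differentiating progenitors (-0.48, adjusted p = 0.0184). Neurons over differentiating progenitors gave 0.41 ± 0.14 (adjusted p = 0.0357), and this call held in 10 of 19 alternative analyses, with 0.20 (adjusted p = 0.316) when all libraries were scaled to an equal sum. It was lost without replicate 1 or 3 of the neurons, 2 or 3 of the differentiating or 3 of the proliferating progenitors (adjusted p = 0.0515 to 0.122). Neurons and proliferating progenitors differed by 0.08 ± 0.14, with a 95% interval of -0.24 to 0.40 (adjusted p = 0.653), and the sign turned under equal sums (-0.21) and quantile normalisation (-0.23).

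Mycl1, the third Myc paralogue, had 4523, 3170 and 3134 normalised reads in neurons. It had 3569, 3047 and 3014 in differentiating progenitors and 2383, 1551 and 1443 in proliferating progenitors. All neuron and differentiating progenitor libraries lay above all proliferating ones, and replicate 1 was the highest library of each group. The log2 change was 0.87 ± 0.21 in differentiating over proliferating progenitors (limma adjusted p = 0.0145). That call was lost without replicate 2 (0.79, adjusted p = 0.0579) or replicate 3 (0.73, adjusted p = 0.0558) of the proliferating progenitors. In neurons over proliferating progenitors it was 1.02 ± 0.21 (adjusted p = 0.00192), a call that held in all 19 alternatives. Neurons over differentiating progenitors gave 0.15 ± 0.21 with a 95% interval of -0.32 to 0.62 (adjusted p = 0.580), and the sign turned under 3 alternatives.

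Max, the partner that both families share, had 1147, 1210 and 1097 normalised reads in neurons. It had 928, 1049 and 903 in differentiating and 1099, 1120 and 952 in proliferating progenitors. Its group means spanned 960 to 1151, the narrowest range of the 9 genes as a fold. Neurons over differentiating progenitors gave a log2 change of 0.26 ± 0.10 (limma adjusted p = 0.0479), which held in 6 of 19 alternatives and was 0.05 (adjusted p = 0.678) under equal sums. It was lost without any 1 neuron library, replicate 1 or 3 of the differentiating or 1 or 2 of the proliferating progenitors (adjusted p = 0.0554 to 0.148). The other comparisons did not pass, with -0.14 ± 0.10 in differentiating over proliferating progenitors (adjusted p = 0.376) and 0.13 ± 0.10 in neurons over proliferating progenitors (adjusted p = 0.299).

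Among the repressors, Mxd3 ran opposite to Myc. Mxd3 had 102, 92 and 80 normalised reads in neurons, 660, 608 and 671 in differentiating and 457, 587 and 682 in proliferating progenitors. Neuron libraries lay below all others, and the progenitor groups overlapped. Its log2 change was -2.82 ± 0.16 in neurons over differentiating (limma adjusted p = 8.02e-07) and -2.63 ± 0.16 over proliferating progenitors (adjusted p = 7.37e-07), against 0.19 ± 0.16 between the progenitors (adjusted p = 0.482). Across the 9 libraries the Pearson correlation of log2 values of Myc and Mxd3 was -0.975, a description of libraries that share their groups. The radial glia markers moved with Mxd3 at the neuron step, and their part in its change was not tested. Exons of Mxd3 overlap those of Prelid1 on the opposite strand, and the strand setting of the counting was not known here. The same holds for Mxd4 and Mxi1, which overlap Gm42846 and Gm10197.

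Mxd4, a repressor known from differentiating cells, had 3576, 3199 and 3067 normalised reads in neurons. It had 1910, 2222 and 1828 in differentiating and 1068, 976 and 782 in proliferating progenitors. No groups overlapped. The log2 change was 1.08 ± 0.13 in differentiating over proliferating progenitors (limma adjusted p = 0.000427), 0.73 ± 0.13 in neurons over differentiating progenitors (adjusted p = 0.00122) and 1.81 ± 0.13 in neurons over proliferating progenitors (adjusted p = 2.07e-06). All 3 calls held in all 19 alternatives. Its promoter is one of those with the E-box printed above.

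Mxd1, the founding Mxd gene, had 1313, 1128 and 1082 normalised reads in neurons, 1327, 1321 and 1160 in differentiating and 847, 663 and 676 in proliferating progenitors. Both later groups lay above the proliferating progenitors and overlapped with each other. The log2 change was 0.81 ± 0.12 in differentiating over proliferating progenitors (limma adjusted p = 0.00163) and 0.69 ± 0.12 in neurons over proliferating progenitors (adjusted p = 0.000922), and both calls held in all 19 alternatives. Neurons over differentiating progenitors gave -0.11 ± 0.12 (adjusted p = 0.479). The red blood cell markers were highest in proliferating progenitors, the group where Mxd1, Mxd4 and Mycl1 were lowest, and their part in these results was not tested. Neuron markers were higher in differentiating than in proliferating progenitors, as were these genes, and the part of those markers was not tested either.

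Mxi1, the Mxd protein also called Mxd2, had 2110, 1933 and 1717 normalised reads in neurons, 1353, 1664 and 1201 in differentiating and 1156, 1058 and 832 in proliferating progenitors. The groups stood in this order without overlap. Neurons over proliferating progenitors gave a log2 change of 0.93 ± 0.16 (limma adjusted p = 0.000675), held in all 19 alternatives. The single steps were 0.47 ± 0.16 in differentiating over proliferating progenitors (adjusted p = 0.0602, and 0.00165 with the replicate block) and 0.46 ± 0.16 in neurons over differentiating progenitors (adjusted p = 0.0350, held in 10 of 19 alternatives). The second call was lost without replicate 1 or 2 of the neurons, 1 or 3 of the differentiating or 2 of the proliferating progenitors (adjusted p = 0.05 to 0.124). The first was gained without replicate 1 of the proliferating progenitors (0.57, adjusted p = 0.0428).

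Mnt, the repressor present in dividing and resting cells alike, had 3469, 2673 and 2614 normalised reads in neurons, 2851, 2110 and 2310 in differentiating and 2410, 1891 and 2066 in proliferating progenitors. Replicate 1 was the highest library in each group. Libraries overlapped at both single steps, but within each replicate number neurons stood highest and proliferating progenitors lowest. Neurons over proliferating progenitors gave a log2 change of 0.45 ± 0.15 (limma adjusted p = 0.0273), which held in 14 of 19 alternatives and was 0.17 (adjusted p = 0.399) under equal sums. It was lost without replicate 1 of the neurons or replicate 2 or 3 of the proliferating progenitors (adjusted p = 0.0708 to 0.0961). Neither single step passed, with 0.19 ± 0.15 in differentiating over proliferating progenitors (adjusted p = 0.449) and 0.27 ± 0.15 in neurons over differentiating progenitors (adjusted p = 0.176). With the replicate block they gave adjusted p = 0.0158 and 0.00117.

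**Figure D2:**
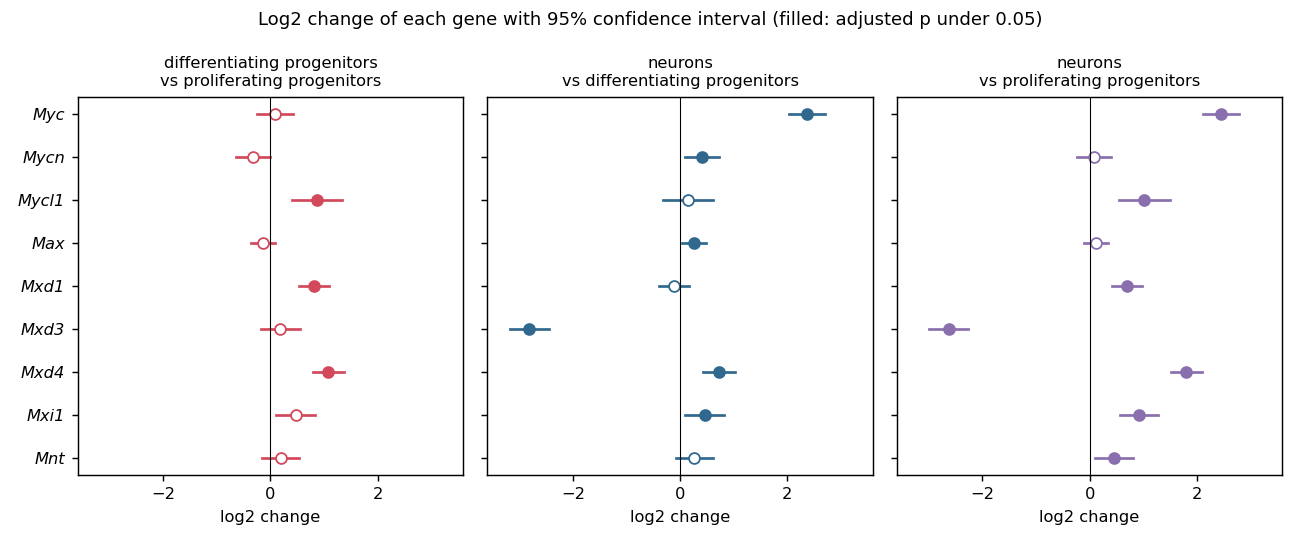
Log2 change (x axis) of the 9 genes (y axis) in 3 comparisons, each panel with the first-named group over the second. Points are limma estimates and bars 95% confidence intervals; filled points have an adjusted p under 0.05, with Myc at 2.37 and Mxd3 at -2.82 in neurons over differentiating progenitors.

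Set against all genes, the count of changed members was not far from the background. In differentiating over proliferating progenitors 3 of 9 members rose (Mycl1, Mxd1 and Mxd4), where 24.9% of all genes tested were called by limma, 13.8% as higher and 11.1% as lower. The libraries of 4 members did not overlap, as for 37.7% of all genes. The other 6 did not pass, and at an unadjusted p under 0.05 there were 4 higher and 1 lower, against 18.3% and 17.2% of all genes. With the replicate block 5 rose and 1 fell, where 24.0% of all genes were called higher and 22.0% lower. The background itself moves, since the 1758 genes called lower became 1076, 1108 and 1114 without replicate 2 or 3 of the differentiating or 2 of the proliferating progenitors, and 2649 with replicates 2 and 3 alone. In neurons over differentiating progenitors 5 rose (Myc, Mycn, Max, Mxd4 and Mxi1) and 1 fell (Mxd3), against 54.0% of all genes called, 27.6% higher and 26.4% lower, and 5 members did not overlap, as for 60.7% of all genes. In neurons over proliferating progenitors 6 rose (Myc, Mycl1, Mxd1, Mxd4, Mxi1 and Mnt) and 1 fell (Mxd3), against 63.3% of all genes, 32.2% higher and 31.1% lower, and 7 members did not overlap, as for 67.6% of all genes. The median log2 change of the members was 0.19, 0.27 and 0.69 in these comparisons, beside -0.02, -0.01 and -0.02 over all genes tested. Equal sums would lower every gene by 0.07, 0.21 and 0.29. Under that scaling and under quantile normalisation 2 members (Myc and Mxd4) rose in neurons over differentiating progenitors. The comparisons share libraries, so their counts are not independent. In the authors' deposited table, 4 members had an adjusted p of at most 0.05 in differentiating over proliferating progenitors (Mycl1, Mxd1, Mxd4 and Mxi1), 3 in neurons over differentiating progenitors (Myc, Mxd3 and Mxd4) and 7 in neurons over proliferating progenitors. The same cut took 13.7%, 34.3% and 42.4% of all 21210 genes in the authors' deposited table.

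To compare levels between genes, normalised reads were divided by the gene length of the table. In neurons Mycn stood first with 1207 reads per kilobase, followed by Mycl1 (894), Mxd4 (845), Mnt (631), Max (574), Myc (447), Mxi1 (342), Mxd1 (252) and Mxd3 (43.9). Of these, Mycn overlapped with Mycl1, Mycl1 with Mxd4 and Mnt with Max, and the libraries of other neighbours stood apart. In differentiating progenitors the order of levels was Mycn (917), Mycl1 (795), Mnt (524), Mxd4 (512), Max (479), Mxd3 (311), Mxd1 (272), Mxi1 (250) and Myc (86.9), where Mycn overlapped with Mycl1, Mnt with Mxd4, Mxd4 with Max, and Mxd1 with Mxi1. In proliferating progenitors it was Mycn (1139), Max (527), Mnt (459), Mycl1 (444), Mxd3 (276), Mxd4 (243), Mxi1 (181), Mxd1 (156) and Myc (81.2), where Max, Mnt and Mycl1 overlapped as neighbours, as did the 4 genes from Mxd3 to Mxd1, and Mycn and Myc stood apart. Myc was thus the lowest member in both progenitor groups, and Mxd3 in neurons. Sums of reads over the gene do not separate isoforms.

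Summed per kilobase, the Myc family reached 2548 ± 366 in neurons, 1799 ± 248.6 in differentiating and 1664 ± 196 in proliferating progenitors (SD, n = 3 each). The Mxd genes and Mnt together reached 2113 ± 234, 1869 ± 102 and 1315 ± 76.4 in the same order. The ratio of the Mxd and Mnt sum to the Myc family sum does not depend on scaling between libraries. That ratio was 0.802, 0.893 and 0.803 in neurons, 0.940, 1.19 and 1.02 in differentiating and 0.744, 0.842 and 0.794 in proliferating progenitors. Per kilobase, the 3 libraries of differentiating progenitors were the highest of the 9, and neurons and proliferating progenitors overlapped. That order depends on the division by length. From undivided reads, neurons and differentiating progenitors overlapped in this ratio, and all neuron libraries stood above all proliferating ones. A sum over chosen genes is a description and was given no test.

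The makeup of each family per kilobase also differed between the groups. Myc made up 17.6% ± 0.834 of the Myc family level in neurons, 4.91% ± 1.25 in differentiating and 4.92% ± 0.542 in proliferating progenitors (SD, n = 3 each). Mycn made up 47.6% ± 2.08, 50.7% ± 3.08 and 68.7% ± 4.03 in the same order of groups, and Mycl1 34.9% ± 2.76, 44.4% ± 2.59 and 26.4% ± 4.54. Within the Mxd and Mnt sum, Mxd3 made up 2.08% ± 0.0933 in neurons, 16.7% ± 1.54 in differentiating and 21.2% ± 5.15 in proliferating progenitors. Mxd4 made up 40.1% ± 1.16, 27.4% ± 2.50 and 18.4% ± 2.20 in the same order. Mxd4 RNA thus had the largest share of this sum in neurons, and Mnt RNA in proliferating progenitors (34.8% ± 2.53). Without division by length, the neuron libraries of Mxd4 and Mnt overlapped.

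**Figure D3:**
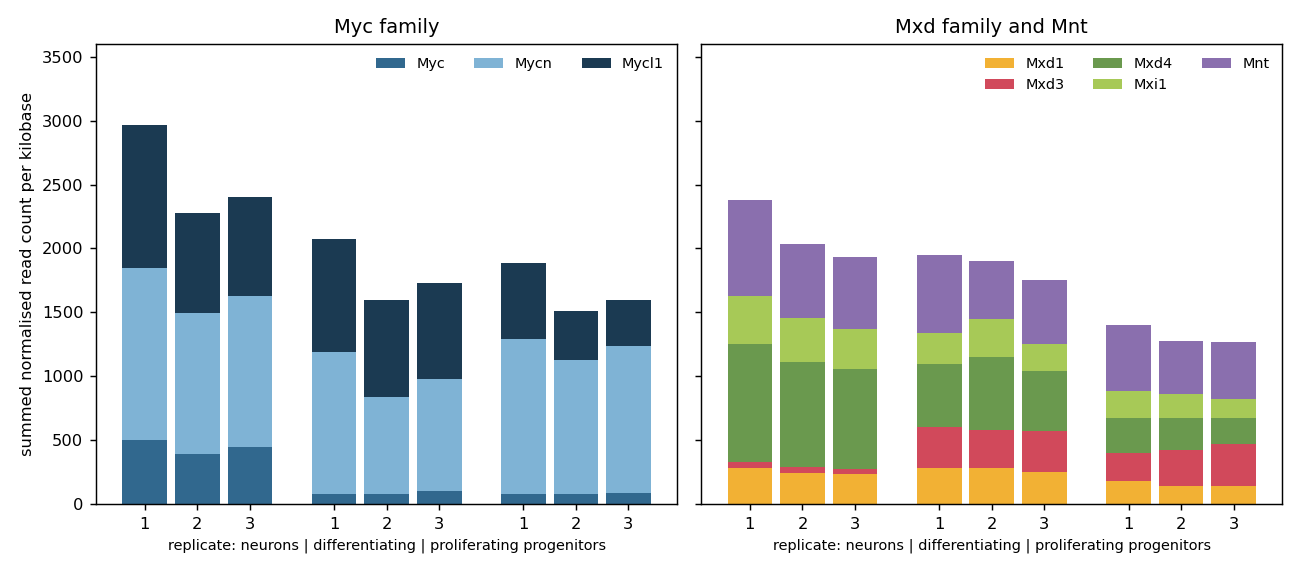
Normalised reads per kilobase (y axis, from 0) summed over the Myc family (left) and over the Mxd genes and Mnt (right), as stacked bars for each library (x axis: neurons, then differentiating, then proliferating progenitors, replicates 1 to 3). Colours are genes; the Myc segment is tallest in neurons, and the Mxd3 segment shrinks to 2.08% of the repressor sum there.

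Partners and relatives of the network, most of them factors that pair with Mlx or Max, were described from a list of 7, of which 6 were in the table. Mlx, the Max-like partner of Mxd1, Mxd4 and Mnt and of the Mondo glucose sensors, had 694, 757 and 728 normalised reads in neurons. It had 378, 430 and 378 in differentiating and 280, 307 and 274 in proliferating progenitors. The groups stood apart, with log2 changes of 0.88 ± 0.10 in neurons over differentiating (limma adjusted p = 7.02e-05) and 0.46 ± 0.10 in differentiating over proliferating progenitors (adjusted p = 0.0103). Mlxip (MondoA) rose alongside, by 0.69 ± 0.08 in neurons over differentiating progenitors (adjusted p = 5.66e-05) and by 0.27 ± 0.08 in differentiating over proliferating progenitors (adjusted p = 0.0317, between 0.0556 and 0.126 in 9 of 19 alternatives, 5 of them without 1 library). Mlxipl (ChREBP) had 8, 12 and 15 normalised reads in neurons, 49, 58 and 82 in differentiating and 54, 59 and 79 in proliferating progenitors, a log2 change of -2.34 ± 0.30 in neurons over differentiating progenitors (adjusted p = 0.000143). Of 2 known targets of the Mondo factors, Arrdc4 rose in neurons (1.02 ± 0.11, adjusted p = 3.98e-05) and Txnip fell (-1.85 ± 0.38, adjusted p = 0.00265) in the same comparison. Zbtb17 (Miz-1), through which Myc represses genes, rose in differentiating over proliferating progenitors (0.31 ± 0.07, adjusted p = 0.0149, and 0.0603 without replicate 3 of the differentiating progenitors). Mga, a large factor that pairs with Max, had log2 changes of 0.12 ± 0.07 and 0.10 ± 0.07 at the single steps (adjusted p = 0.271 and 0.263). In neurons over proliferating progenitors it was called higher (0.22 ± 0.07, adjusted p = 0.0211), but its sign turned under equal sums and quantile normalisation. That call was also lost with no intensity trend, or without replicate 3 of the neurons or of the proliferating progenitors. Bmyc, a near copy of part of Myc, had 338, 250 and 203 normalised reads in neurons, 204, 113 and 99 in differentiating and 193, 147 and 151 in proliferating progenitors. Neurons over differentiating progenitors gave 0.96 ± 0.29 (adjusted p = 0.0195). That call was lost under equal sums and without replicate 1 of the neurons or 2 or 3 of the differentiating progenitors (adjusted p = 0.0572 to 0.0737). Neurons over proliferating progenitors gave 0.66 ± 0.29 (adjusted p = 0.0736). How reads shared by Myc and Bmyc were assigned was not known here.

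Cofactors were counted against the same background. Of 14 co-repressor genes of the Mxd and Mnt proteins, 2 rose in differentiating over proliferating progenitors (14.3% called, against 24.9% of all genes, 13.8% as higher). In neurons over differentiating progenitors 1 rose and 5 fell (42.9% called, against 54.0% of all genes). The median log2 change there was -0.12, against -0.01 over all genes. Hdac1, a histone deacetylase, fell in neurons over differentiating progenitors (-1.06 ± 0.09, limma adjusted p = 8.66e-06), as did the histone-binding Rbbp7 (-1.27 ± 0.21, adjusted p = 0.000722). Hdac2 rose in neurons over proliferating progenitors (0.74 ± 0.17, adjusted p = 0.00347, but 0.37 and 0.0532 under quantile normalisation). Of 15 co-activators of Myc, 1 rose and 4 fell in neurons over differentiating progenitors, 33.3% of the list against 54.0% of all genes called (median log2 change -0.13). Among these the acetyltransferase Kat2a changed by -0.79 ± 0.15 (adjusted p = 0.00164), Ruvbl1 by -0.65 ± 0.23 (adjusted p = 0.0410) and Actl6a by -0.86 ± 0.29 (adjusted p = 0.0310). The calls of Ruvbl1 and Actl6a were lost without replicate 1 of the neurons or replicate 2 or 3 of the differentiating progenitors (adjusted p = 0.0973 to 0.126), and that of Ruvbl1 also without replicate 3 of the neurons (0.0516) or of the proliferating progenitors (0.0578).

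Of 15 genes that set the stability of Myc proteins, 2 fell in differentiating over proliferating progenitors (13.3% called, against 24.9% of all genes, 11.1% as lower). In neurons over differentiating progenitors 1 rose and 7 fell (median log2 change -0.26). The called share of the list was 53.3% there, near the 54.0% of all genes (27.6% higher and 26.4% lower). Fbxw7, the ubiquitin ligase subunit that marks Myc and Mycn for destruction, had 1129, 1120 and 1028 normalised reads in neurons, 1545, 1348 and 1304 in differentiating and 1984, 2077 and 1980 in proliferating progenitors. It fell at both steps, by 0.35 ± 0.09 in neurons over differentiating (limma adjusted p = 0.00745) and by 0.53 ± 0.09 in differentiating over proliferating progenitors (adjusted p = 0.00242). Aurka, a mitotic kinase that shields Mycn protein, had 98, 60 and 66 normalised reads in neurons, against 1982, 1341 and 1608 in differentiating progenitors (-4.46 ± 0.20, adjusted p = 2.36e-07). Skp2, another ligase subunit, had 511, 535 and 554 in neurons, against 2233, 1756 and 2010 in differentiating progenitors (-1.90 ± 0.11, adjusted p = 7.14e-07). Trim32, a ligase known to target Myc protein in mouse neural progenitors, had 3403, 3098 and 2798 in neurons, against 1731, 1579 and 1308 in differentiating progenitors (1.01 ± 0.13, adjusted p = 0.000167).

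Among genes that Myc is known to activate, more fell than rose in each comparison. Of 54 such genes 8 rose and 24 fell in neurons over differentiating progenitors (median log2 change -0.32), and 4 rose and 37 fell in neurons over proliferating progenitors (median -0.60). In differentiating over proliferating progenitors 1 rose and 14 fell (median -0.27), with medians over all genes of -0.01, -0.02 and -0.02. The called shares of the list were 59.3%, 75.9% and 27.8%, against 54.0%, 63.3% and 24.9% of all genes. By direction, 26.4%, 31.1% and 11.1% of all genes were called lower, and 27.6%, 32.2% and 13.8% higher. Many of these genes serve growth and division. Beside them, all 20 proliferation genes fell in neurons over differentiating progenitors (median -3.80), where 54.0% of all genes were called, 26.4% as lower. In differentiating over proliferating progenitors 7 of 20 fell (median -0.23), 35% of the list against 24.9% of all genes called and 11.1% called lower. How much of the change of the first list goes with division was not tested.

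Single targets went both ways. Ldha (lactate production) had 5635, 4919 and 4597 normalised reads in differentiating progenitors, against 8895, 9586 and 8577 in proliferating progenitors (-0.84 ± 0.10, limma adjusted p = 0.000431), and fell again in neurons (-0.62 ± 0.10 over differentiating progenitors, adjusted p = 0.000696). Srm (polyamine synthesis) had 1143, 1111 and 1088 in neurons, 842, 759 and 727 in differentiating and 1225, 1385 and 1301 in proliferating progenitors. It thus fell at the first step (-0.75 ± 0.09, adjusted p = 0.000362) and rose at the second (0.52 ± 0.09, adjusted p = 0.000781). Hk2 (glucose phosphorylation) fell at both, by 0.68 ± 0.13 at the first step (adjusted p = 0.00464) and by 1.58 ± 0.13 at the second (adjusted p = 6.67e-06). Lin28b, a blocker of let-7 microRNAs, had 293, 178 and 233 normalised reads in neurons, against 15, 13 and 25 in differentiating progenitors (3.68 ± 0.48, adjusted p = 0.000148). The cell cycle genes E2f2 (-4.72 ± 0.38, adjusted p = 6.67e-06) and Ccnd2 (-2.72 ± 0.32, adjusted p = 8.5e-05) fell in the same comparison. Among 47 genes of this list with a RefSeq window 16 hold the E-box (34.0%), against 8.09% of all 27025 genes with a window.

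Genes that Myc is known to repress, 7 of 8 tested, did not move in 1 direction. In differentiating over proliferating progenitors 3 rose and 2 fell (71.4% of those tested, against 24.9% of all genes called). Cdkn1c, a brake on the cell cycle, had 1791, 1689 and 1730 normalised reads in differentiating progenitors, against 180, 147 and 127 in proliferating progenitors (3.53 ± 0.15, limma adjusted p = 5.61e-06). Cdkn1a (1.02 ± 0.20, adjusted p = 0.00565) and the stress gene Gadd45a (1.40 ± 0.18, adjusted p = 0.000511) rose as well, while Gas1 (-1.15 ± 0.27, adjusted p = 0.0129, and 0.0525 without replicate 3 of the differentiating progenitors) and Ndrg2 (-0.93 ± 0.13, adjusted p = 0.000813) fell. In neurons over differentiating progenitors 1 rose and 4 fell (71.4% of those tested, against 54.0% of all genes called). The one that rose was Ndrg1, with 2342, 3369 and 3153 in neurons, against 175, 257 and 221 in differentiating progenitors (3.76 ± 0.18, adjusted p = 2.93e-07). Cdkn1c did not pass at that step (0.05 ± 0.15, adjusted p = 0.803).

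**Figure D4:**
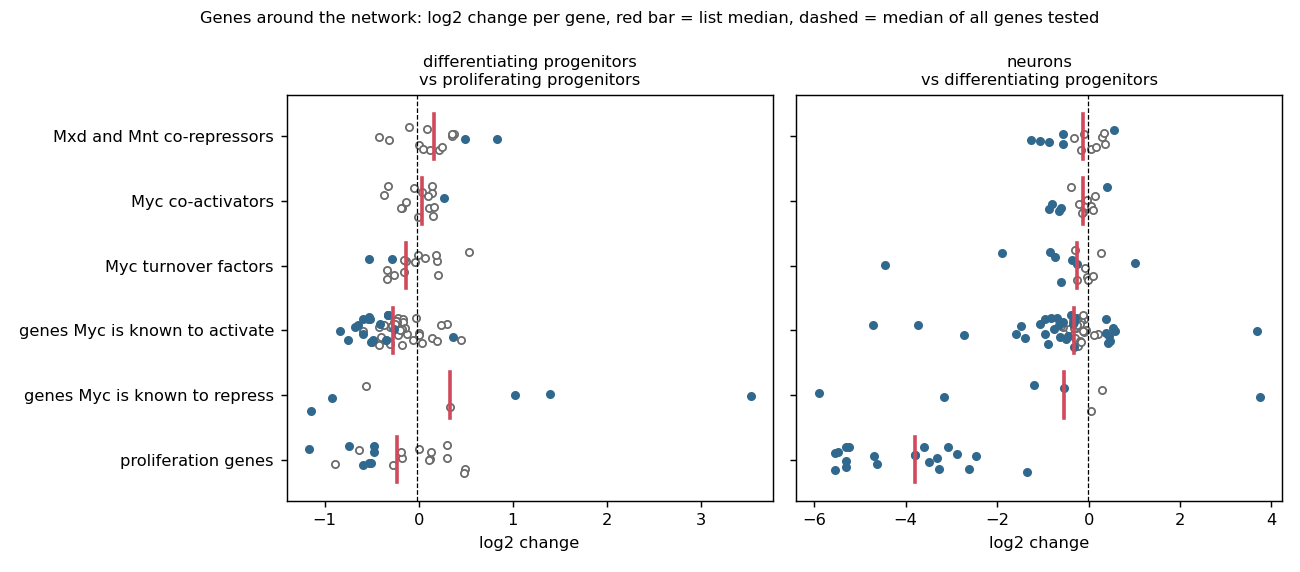
Log2 change (x axis) of each gene of 6 lists around the network (y axis), in differentiating over proliferating progenitors (left) and neurons over differentiating progenitors (right). Filled points have a limma adjusted p under 0.05, red bars are list medians and dashed lines the median of all genes tested; the proliferation genes lie far below 0 on the right (median -3.80), and the genes Myc is known to activate at -0.32.

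The genes whose log2 values were most like each member over the 9 libraries were found by Pearson correlation among 12580 genes with a mean of at least 50. For Myc they were Fam98c (0.997), C530028O21Rik (0.996) and Rapgefl1 (0.995), and 946 genes correlated above 0.95. For Mxd3 they were Polq (0.999), E130306D19Rik (0.999) and Neil3 (0.999), with 1090 genes above 0.95, and for Mxd4 Aff4 (0.999), Zfp238 (0.998) and 8430427H17Rik (0.998), with 650. The patterns of Mycn and Max were shared by few genes. Above 0.95 there were 7 for Mycn, led by C230034O21Rik (0.966), Fjx1 (0.965) and Dgcr2 (0.961), and 2 for Max, Ndufa11 (0.957) and Sod2 (0.954), followed by Ddt (0.936). Mycl1 was most like Fscn1 (0.991), Dpm1 (0.985) and Adnp (0.984), and Mxd1 most like Plekhm3 (0.988), Spsb1 (0.987) and Bcar1 (0.986). Mxi1 was most like Jmy (0.993), Ube2h (0.987) and Actb (0.985), and Mnt most like Lrfn4 (0.992), Zfp444 (0.982) and Tsc22d2 (0.975). The points of each correlation share 3 groups and the replicate numbers, so these are descriptions only.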

How the data were processed

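The build mm9 and the tools DESeq 1.8.1, bedtools 2.11, BWA and CASAVA 1.8.0 are named, without their roles, per the submitters' processing notes. The authors deposited a normalised score per gene and library, whole-number normalised read counts for Ensembl version 61 genes per the file headers, with gene length as another column. Folds (the ratio of group means) and adjusted p-values of the authors were deposited in the same table. Exact reads could not be recovered, so no count model was used.

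limma 3.58.1 in R 4.3.3 was fitted with an intensity trend to log2(value + 1) of all 9 libraries and 15828 genes, with 6 residual degrees of freedom, Benjamini-Hochberg adjustment and a threshold of 0.05. Fold changes are on that scale, which understates changes of low genes. The script was tested on simulated data. Python 3.11.15, numpy 2.4.6, pandas 2.3.3 and matplotlib 3.10.9 did the rest. The 9 genes and all lists were chosen with earlier results of these data known. Named genes are the members, all partners, the sort genes Btg2 and Tubb3, the 3 genes most like each member, and up to 3 called genes per list, comparison and direction with the largest change and no overlap, of which some are left out or not reported here. Some of these were followed into a further comparison that the rule does not name, chosen with values known.

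The replicate numbers come from the titles and pair the libraries. Deviations from the group means correlated across genes at 0.507 to 0.767 in the 9 pairs that share a number, and at -0.64 to 0.428 in the 18 other pairs. Among the other pairs, replicates 2 and 3 correlated with each other at 0.272 to 0.428. Pairs of replicate 1 with another number lay at -0.64 to -0.545. The deviations in each group sum to 0, so negative values between different numbers are partly forced. A replicate block (4 residual degrees of freedom) is given where it changes a call. The labels call the libraries biological replicates from pools. Exon overlaps came from GENCODE release M21 and promoter windows from RefSeq.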

Additional observations from a re-analysis of the deposited data

How the results depend on the processing

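The log2 changes of the members kept their direction and their side of the threshold in 459 of 513 alternative values, while 38 lost a call, 9 gained one and 7 turned their sign. Many of these alternatives leave the log2 change itself as it was and can move only its adjusted p. They include the replicate block, no intensity trend, only the 2 groups fitted, and leaving out a library of the group not compared. Calls held in all 19 alternatives for Mxd1 and Mxd4 in differentiating over proliferating progenitors, Myc, Mxd3 and Mxd4 in neurons over differentiating progenitors, and Myc, Mycl1, Mxd1, Mxd3, Mxd4 and Mxi1 in neurons over proliferating progenitors. In differentiating over proliferating progenitors the replicate block gave 5 members higher and 1 lower, in place of 3 and 0 (paired fit: Mycn fell, Mxi1 and Mnt rose), and replicates 2 and 3 alone gave 1 lower. Over all genes the block also raised the calls, to 3793 higher and 3489 lower in place of 2186 and 1758. Leaving out 1 library gave 0 to 1 lower. In neurons over differentiating progenitors the 5 higher members became 2 under equal sums, 2 under quantile normalisation, 2 with no intensity trend and 3 with only the 2 groups fitted, and 2 to 4 when 1 library was left out. There the replicate block added Mnt, and it also gave Bmyc a call in neurons over proliferating progenitors (adjusted p = 0.00163). Bmyc was called there as well under quantile normalisation, with replicates 2 and 3 alone and with only the 2 groups fitted (adjusted p = 0.0142 to 0.0348). Leaving out replicate 1 of the differentiating progenitors did the same (adjusted p = 0.0226). The cause was not tested. Signs turned, all for values that did not pass the threshold except Mga in neurons over proliferating progenitors. In differentiating over proliferating progenitors Myc ranged from -0.068 to 0.177 when 1 library was left out, and Mlxipl from -0.24 to 0.125. There Mlxipl became 0.027 (quantile) and 0.014 (replicates 2 and 3 alone). In neurons over differentiating progenitors equal sums and quantile normalisation gave Mycl1 -0.063 and -0.030, Mga -0.116 and -0.120, and Zbtb17 -0.146 and -0.094, and Mycl1 ranged from -0.022 to 0.243 when 1 library was left out. In neurons over proliferating progenitors they gave Mycn -0.207 and -0.229 and Mga -0.072 and -0.114, and equal sums gave Max -0.162. Without division by length, 15 of 27 level ranks moved, with Mycl1 above Mycn in differentiating progenitors. The lowest value of a member was 80 normalised reads, and the median SE of a member's log2 change was 0.151. How much of that is counting error was not tested.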

Other observations

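Replicate number moved several members in parallel across the groups. Relative to the group means, replicate 1 stood higher by 0.32 on the log2 scale for Mycl1, 0.23 for Mnt, 0.18 for Mycn and 0.15 for Mxd1, as a mean over the 3 groups. Mxi1 stood lower in replicate 3, at -0.21. Myc and Mxd3 deviated by at most 0.12 in any replicate. Replicate 1 also had the fewest estimated reads and the highest sum of interneuron markers in each group, and their part in these deviations was not tested. The labels give no reason for the numbering beyond the replicate itself.

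None of the 9 members was highest or lowest in differentiating progenitors by both limma comparisons at an adjusted p of 0.05, against 349 genes highest and 397 lowest among the 15828 tested. With the replicate block 1 member, Mycn, was lowest there at adjusted p = 0.00275 and 0.000307, against 874 of all genes. At an unadjusted p under 0.05 in both it was also 1 member, Mycn, against 646 of all genes.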
